A study of Capra hircus with 2 samples.

Results

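Small RNA tags that end in CCA, the 3-base tail of a mature tRNA, were taken from libraries of the goat mammary gland. A tag is a distinct clean read sequence with its count of reads. Tags were chosen when their last 3 bases were CCA and when they did not share 18 or more nt from the 5′ end with a sequence on the study's list of 346 conserved miRNAs. Of the 1692810 tags of both libraries, 52191 were chosen. The dry period library held 21794 of them and the peak lactation library 40454. Only 10057 tags were in both libraries, but these held 96.2% of the reads of the tail tags. A single read was found for 34900 tags (66.9%).

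The tissue was the mammary gland of Xinong Saanen dairy goats, 2.5 years old, in the dry period, when no milk is made, and at peak lactation. RNA of 3 goats was pooled at each stage and 1 library was sequenced per stage, so the spread between goats or between library preparations could not be estimated and no p-value for a difference between the stages is given. The intervals of shares are Wilson 95% intervals, those of log2 ratios are the Wilson 95% interval of the part of the reads found at peak lactation turned into a ratio, and both cover the sampling of reads alone; reads are copies made by PCR and not independent molecules. RNA under 30 nt was selected on a gel before sequencing, so whole tRNAs were not read. In the sample labels the dry gland carries a time of 75 days after lambing and the lactating gland 320 days, which is the reverse of the methods text, so each library was assigned by its title.

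A tRNA carries its amino acid on the A of the CCA tail, which an enzyme adds to the trimmed transcript and which is not encoded in the genes of animals. The acceptor stem stands before the tail, and the T arm, a hairpin whose loop starts with the letters TTC when read as DNA, stands before the acceptor stem. A cut in the T arm leaves a 3′ fragment that starts in the loop or the stem and keeps the tail. Such fragments are known from many tissues. In most tRNAs the loop also holds a methylated A, which is known to make reverse transcriptases misread the base or stop.

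The sequences below show the most abundant tag of each of the main groups, with the tail in capitals. Groups were formed by the last 15 bases and numbered by their reads over both libraries. The 12 groups with the most reads were named, together with the 3 groups that had the largest ratio and the 3 that had the smallest ratio of peak lactation to dry period among the groups of at least 1000 reads. Group 4 met both rules. The tags share a 3′ end inside a group and differ in where they start.
Group 1: atcacgtcggggtcaCCA
Group 2: aaccgggcggaaacaCCA
Group 3: tcgtttccggctcgaaggaCCA
Group 4: cagggttcaggtccctgttcgggcgCCA
Group 5: atcccggacgagcccCCA
Group 6: atcccatcctcgtcgCCA
Group 7: ccgacttagaactggtgcggaCCA
Group 8: tcgtttcccgggcggcgcaCCA
Group 9: aggaattgacggaagggcaCCA
Group 10: gttcgatccccggcatctccaCCA
Group 11: atattatgaatatcttgaCCA
Group 12: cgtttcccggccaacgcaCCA
Group 16: tgggttcgtgccccacgttgggcgCCA
Group 17: cgtgtcctgccgcggtcgCCA
Group 27: agtacttccaggaacggtgcaCCA
Group 44: aacagcaaacagaggatgaactCCA
Group 66: tgacctatgaattgacagCCA
No tRNA was named for a group, because the tags were not matched to tRNA genes here.

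The libraries held 14851375 and 15712891 clean reads (dry period first), over 788915 and 1108514 tags of 18 to 44 nt. A floor of 3 reads corresponded to 0.202 and 0.191 reads per 1000000 clean reads (RPM). Reads that shared 18 or more nt from the 5′ end with a listed conserved miRNA were counted as miRNA. They took 61.1% of all clean reads from the dry gland and 14.4% from the lactating gland, a log2 ratio of -2.08. The study, which counted reads matched to miRNA precursors, gave fewer in the dry period and more at peak lactation. The set of non-miRNA reads thus depends on how miRNA reads are counted. With the study's counts, more reads in the dry period and fewer at peak lactation would be left as non-miRNA. Every ratio per non-miRNA read would then be higher than the one given here. That denominator was not used. A share of clean reads and a share of the remaining reads can differ between the stages. Ratios of the tail tags and of the named groups are therefore given per clean read and per non-miRNA read, and those by length per clean read alone. Every log2 ratio is peak lactation over dry period, and any of them is lower by 1.14 per non-miRNA read than per clean read. The 6 epithelial miRNAs checked (miR-200a, miR-200b, miR-200c, miR-141, miR-429 and miR-205) were all found, with a summed level of 2687 RPM in the dry period and 1342 RPM at peak lactation. The 4 muscle miRNAs (miR-1, miR-206, miR-133a and miR-133b) summed to 7241 and 3847 RPM, of which miR-1 made up 7175 and 3835 RPM, and the 3 of red blood cells (miR-451, miR-144 and miR-486) to 110 and 190 RPM. These sums are per clean read, of which miRNA reads as a whole took 61.1% and 14.4%, so they do not compare the amount of a cell type between the stages. The part of other cell types in the results was not tested. In tissue RNA of this kind, more cells with a fragment and more of it per cell cannot be told apart.

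Tail tags held 440821 reads in the dry period library and 1195347 at peak lactation. These were 2.97% (2.96 to 2.98%) and 7.61% (7.59 to 7.62%) of the clean reads, a log2 ratio of 1.36 (1.35 to 1.36) or 2.56-fold. Of the non-miRNA reads, they were 7.64% (7.62 to 7.66%) and 8.89% (8.87 to 8.90%), a log2 ratio of 0.22 (0.21 to 0.22) or 1.16-fold. With miRNA reads counted as here, the tail tags were thus more frequent at peak lactation per clean read, as were the other non-miRNA reads, and by a small amount beyond them. Non-miRNA tags without the tail had a log2 ratio of 1.12 per clean read and -0.02 per non-miRNA read. Without the single group 4, which is described below, the log2 ratio of the tail tags was 1.27 per clean read and 0.13 (0.12 to 0.13) per non-miRNA read.

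Among the 64 possible 3-base ends of non-miRNA reads, CCA ranked first by reads in both libraries and also first by tags. The next end was GTT in the dry period, with 4.02% of the non-miRNA reads, and CGG at peak lactation, with 3.79%. GTT ranked only 44 at peak lactation, with 1.04% and a log2 ratio of -0.81 per clean read. Several let-7 miRNAs listed by the study end in GTT. Whether reads of them remained among the non-miRNA reads was not tested. The median end had 1.23% and 1.19%. In a tRNA the base before the tail is the first one after the acceptor stem and is called the discriminator base. Over all tail tags the base before the CCA was A in 75.0% of the reads in the dry period and 69.1% at the peak of lactation. It was G in 13.8% and 19.3%, C in 8.01% and 7.79%, and T in 3.20% and 3.88%. These shares include groups that ran on past the CCA, described below, such as groups 7 and 9, which have A there.

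**Figure D1:**
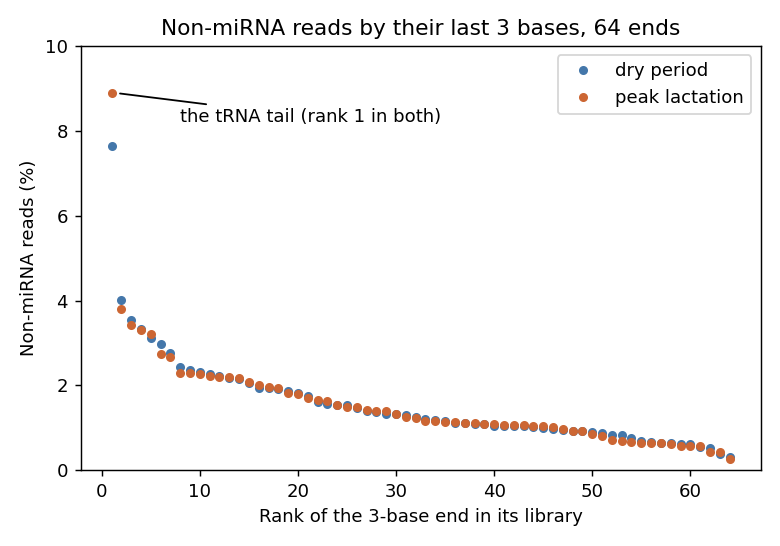
The share of non-miRNA reads (%) with each of the 64 three-base ends is plotted against the rank of the end in its library, 1 point an end, for the dry period and peak lactation. The CCA tail stood at 7.64% and 8.89%, and the next ends at 4.02% and 3.79%.

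The tail alone does not set the origin of a tag, so each group was checked for whether its 15 bases stood at the end of the reads. In 430 of the 701 groups that reached 1 RPM in a library, 90% or more of the non-miRNA reads holding the 15 bases ended there. These are called end groups, and they held 85.4% of the reads of the tail tags. The other 271 groups held 12.6%, and many of their reads ran on past the CCA. Among the named groups, 7, 9, 44 and 66 were of this second kind. In group 9, 28.7% of the reads with its 15 bases ended at the CCA and 81440 reads ran on, and in group 7 the values were 63.6% and 42814. The other 13 named groups ended at the CCA in 98.5% (group 10) to 99.9% (group 16) of the reads.

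The letters expected of a T arm separated the kinds of groups, although the rule had not used them. A tRNA counted back from its tail has the TTC of the loop at positions 23 to 21 from the 3′ end, and all tags of 23 nt or more were searched there on the strand as read. In the end groups TTC stood at this place in 86.1% of the reads in the dry period against 88.2% at peak lactation. In the groups that ran on it did so in 0.422% and 0.367%, and in non-miRNA tags without the tail in 0.652% and 0.754%. A C at position 16, the base that follows the T loop in a tRNA, was found in 94.4% and 95.7% of the reads of end groups. In groups that ran on the values were 10.2% and 11.5%, and in tags without the tail 17.2% and 21.2%. A match of letters does not name a tRNA.

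Reads with the CCA were also set beside reads that ended earlier on the same 12 bases before the tail. Over the bodies of the 430 end groups, 69.2% of the reads in the dry period and 74.8% at the peak of lactation ended in the full tail. Reads with CC made up 3.46% and 3.93%, with C 3.70% and 3.61%, and with no tail base 6.06% and 4.24%. The remaining reads ended with other bases or ran on. The groups differed among themselves. Group 6 had the full tail in 96.9% of the reads in both libraries and group 2 in 95.6% and 97.1%. Group 5 had it in only 69.3% and 73.2%, with no tail base in 11.3% and 9.66%, and group 27 in 75.7% and 78.1%, with 10.8% and 8.51% ending in CC.

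The reads fell on few sequences. By the last 15 bases the tail tags formed 18019 groups, of which 4 held 50% of the reads, 14 held 75% and 46 held 90%. Groups 1, 2 and 3 together held 45.2%. Of the 701 groups over 1 RPM, 371 were variants of a group with at least 20 times their reads. They differed by 1 substitution from it or from a variant already joined to it. These 371 held only 2.56% of the reads. Whether they were errors of sequencing or tRNAs of their own was not tested.

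Group 1 was the largest, with 84489 reads in the dry period against 220927 at peak lactation. Its log2 ratio was 1.31 (1.29 to 1.32) per clean read and 0.17 (0.15 to 0.18) per non-miRNA read. Group 2 had 75265 and 172302 reads, with a log2 ratio of 1.11 (1.10 to 1.13) per clean read and -0.03 (-0.04 to -0.01) per non-miRNA read. Both groups were thus higher at peak lactation per clean read, and close to level among the reads not counted as miRNA here. Group 3 had 47863 and 139428 reads and log2 ratios of 1.46 (1.45 to 1.48) and 0.32 (0.31 to 0.34).

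Several of the next groups moved like group 2. Group 5 had 24776 and 56769 reads, with log2 ratios of 1.11 per clean read and -0.02 per non-miRNA read. Group 6 had 22719 and 52841 reads and log2 ratios of 1.14 and -0.003. Groups 9, 10 and 11 lay between -0.06 and 0.02 per non-miRNA read (9782 and 23009, 8986 and 20050, and 6744 and 15978 reads). Groups 8 and 12, whose last 15 bases both begin with ccgg and end with cgcaCCA, were lower among the non-miRNA reads. Group 8 had 16241 and 25768 reads, with log2 ratios of 0.58 (0.56 to 0.61) per clean read and -0.55 per non-miRNA read, and group 12 had 6650 and 11880, with 0.76 (0.71 to 0.80) and -0.38. Group 7, of which a large part ran on past the CCA, had 18122 and 56570 reads and log2 ratios of 1.56 and 0.42.

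Group 4 stood apart. It had 5183 reads in the dry period (349 RPM) and 87101 at the peak of lactation (5543 RPM), so the log2 ratio was 3.99 (3.95 to 4.03) per clean read, 15.9-fold, and 2.85 (2.81 to 2.89) per non-miRNA read, 7.21-fold. Its share of the tail tag reads was 1.18% in the dry period against 7.29% at peak lactation. Group 16 had the largest ratio of the groups with at least 1000 reads, with 526 reads in the dry period and 13472 at the peak of lactation. Its log2 ratio was 4.60 (4.47 to 4.72) per clean read and 3.46 per non-miRNA read. Groups 4 and 16 both end in gggcgCCA and have the TTC of the T loop in the tag shown. Group 44 had 162 and 3137 reads and log2 ratios of 4.19 (3.97 to 4.42) per clean read and 3.05 per non-miRNA read, but only 28.8% of the reads with its 15 bases ended at the CCA.

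At the other end, group 17 had 6508 and 7311 reads, with log2 ratios of 0.09 (0.04 to 0.13) per clean read and -1.05 (-1.10 to -1.005) per non-miRNA read. Group 27 had 3516 and 3931 reads and log2 ratios of 0.08 (0.01 to 0.15) and -1.06 (-1.13 to -0.99). Both were nearly level per clean read, and among non-miRNA reads they were 0.482 and 0.480 times as frequent at peak lactation. Group 66 was the one group of at least 1000 reads that was lower at peak lactation by more than 2-fold per clean read, with 1066 and 472 reads and log2 ratios of -1.26 (-1.41 to -1.10) per clean read and -2.40 per non-miRNA read. Its most abundant tag held 93.8% of its reads, starts at base 2 of chi-miR-192 as listed by the study and runs 1 base past its end, so it stayed among the tail tags only because it starts 1 base late. Tags removed as chi-miR-192 that ended in CCA had 3953 and 2076 reads, a log2 ratio of -1.01.

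**Figure D2:**
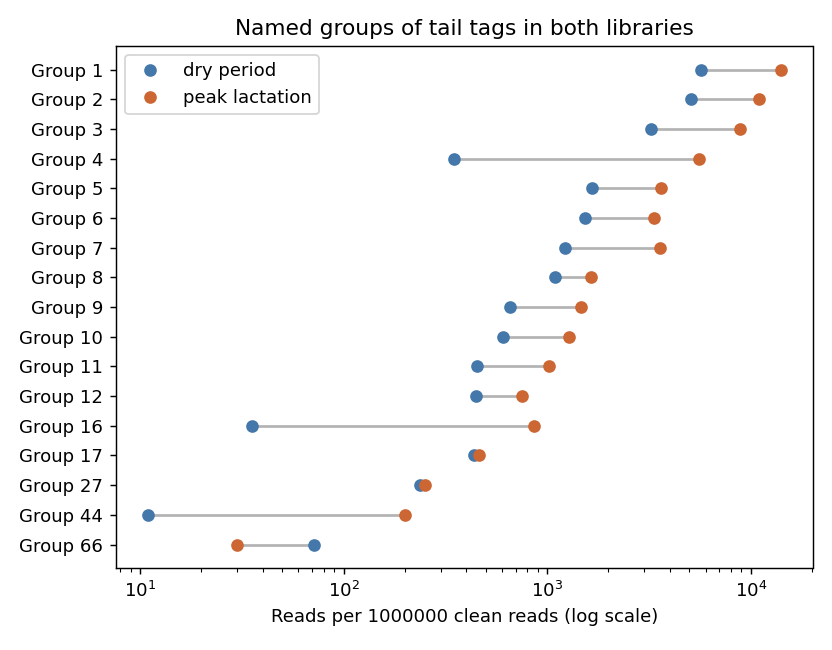
Reads per 1000000 clean reads (log scale) of the 17 named groups, with 1 point for the dry period library and 1 for the peak lactation library joined by a line. Groups 4, 16 and 44 show the widest gaps, with log2 ratios of 3.99, 4.60 and 4.19, and only group 66 lies lower at peak lactation.

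Over all 701 groups, 517 were higher at peak lactation by more than 2-fold per clean read (73.8%) and 17 were lower (2.43%). Among all groups of non-miRNA tags over 1 RPM the shares were 62.6% and 12.2%, and among groups of all tags, miRNA included, 57.0% and 17.8%. Per non-miRNA read, 188 of the tail groups were higher (26.8%) and 52 lower (7.42%), against 25.2% and 20.8% of all groups of non-miRNA tags. The share of higher groups among the tail tags was thus close to the background per non-miRNA read, and the share of lower groups was below it. Scaled by the TMM factors of edgeR, 28.8% of the tail groups were higher and 6.56% lower, against 27.1% and 19.8% of all groups of non-miRNA tags and 24.6% and 26.8% of groups of all tags. The median log2 ratio was 1.43 per clean read and 0.29 per non-miRNA read, and 1.33 and 0.19 over groups without the tail. The shift of all tags was 1.21 per clean read.

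Part of these calls rested on few reads, so the groups with at least 1000 reads were also counted. There were 79 of them with 93.5% of the reads, of which 59 were higher and 1 lower per clean read. Per non-miRNA read, 15 were higher and 4 lower, that is 54 above 0 and 25 below 0. Among 1995 such groups without the tail, 71.1% were higher per clean read, and 13.7% were higher and 8.67% lower per non-miRNA read. The median log2 ratio of the 79 groups was 1.32 per clean read and 0.18 per non-miRNA read, and 1.28 and 0.14 without the tail. With 58 end groups of this size, 10 were higher and 3 lower per non-miRNA read.

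In 15 of the 701 groups no read was found in the dry period library, and none was at 0 at peak lactation. All but 1 of them had at most 40 reads. The exception was group 85 (ending in ccggtcggggaaCCA), which was singled out after its values were seen. It had 0 reads in the dry period against 859 at peak lactation, which is at least 271-fold higher per clean read and at least 123-fold per non-miRNA read against the floor of 3 reads in the dry period library.

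**Figure D3:**
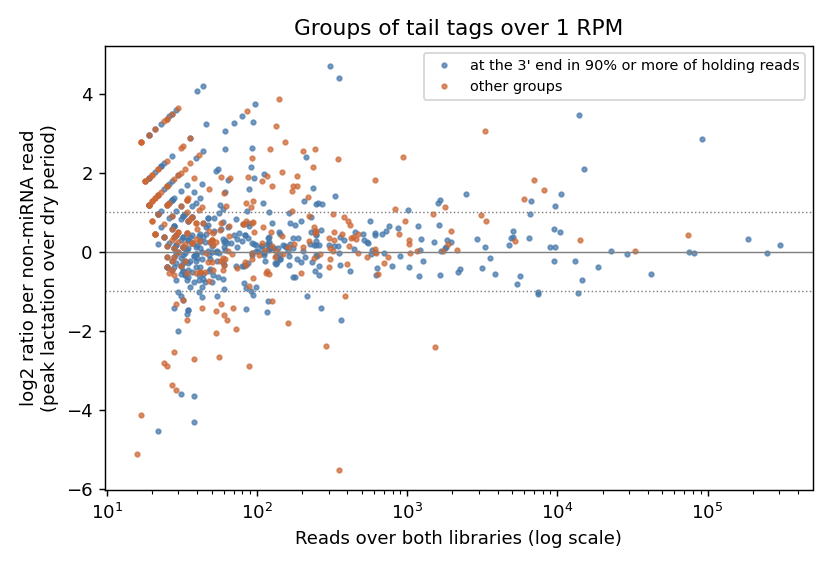
The log2 ratio per non-miRNA read (peak lactation over dry period) of each group over 1 RPM is plotted against its reads over both libraries (log scale); dotted lines mark a 2-fold difference, and the 15 groups without a read in the dry period are not drawn. The spread is wide for groups of few reads, and among the largest groups group 4 stands at 2.85 while groups 1, 2 and 3 stand at 0.17, -0.03 and 0.32.

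Tail tags were short in both libraries, with a median read of 21 nt in the dry period and 22 nt at peak lactation. In the dry period, 37.7% (37.6 to 37.9%) of the reads were 18 to 20 nt, 54.8% were 21 to 24 nt and 7.52% (7.44 to 7.59%) were 25 to 29 nt. At peak lactation the shares were 31.2% (31.1 to 31.3%), 45.8% and 22.9% (22.81 to 22.96%). Reads of 30 nt or more, beyond the size selected on the gel, were 0.024% and 0.136%. The long fragments therefore differed more between the stages than the short ones.

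Per clean read, the log2 ratio was 1.09 for 18 to 20 nt, 1.10 for 21 to 24 nt and 2.96 for 25 to 29 nt. It was 0.75 at 22 nt, 3.82 at 27 nt (6409 and 95893 reads), 4.37 at 28 nt (2655 and 57942 reads) and 4.53 at 29 nt (440 and 10726 reads). The shift to longer reads was not particular to the tail. Non-miRNA tags without it had log2 ratios of 0.92, 0.85 and 2.04 in the same length classes, and their share of 25 to 29 nt went from 14.3% to 27.2%. At peak lactation, group 4 gave 25.3% of the tail tag reads of 25 to 29 nt, against 7.01% in the dry period. When group 4 was left out, the share of 25 to 29 nt went from 7.07% to 18.4%.

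**Figure D4:**
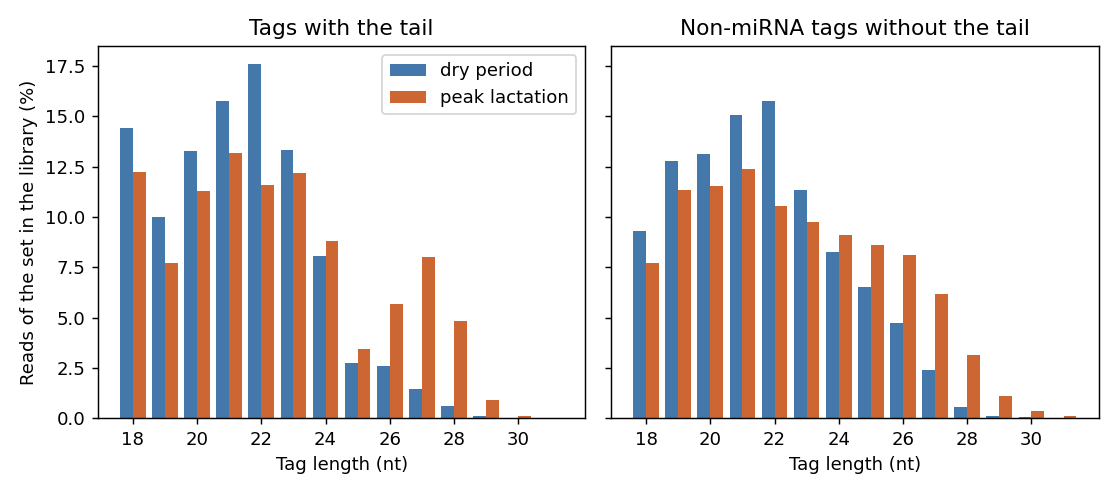
Share of reads (%) at each tag length (nt) in the dry period and peak lactation libraries, for the tail tags and for non-miRNA tags without the tail. In both sets the bars above 24 nt were taller at peak lactation, with 22.9% against 7.52% of the tail tag reads and 27.2% against 14.3% of the others at 25 to 29 nt.

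Because the tags of a group share their 3′ end, a length gives the place of the 5′ start. Counted back from the tail, a start in the T loop of a tRNA gives a tag of 17 to 23 nt, and a start in the 5′ strand of the T stem gives 24 to 28 nt. Of the 430 end groups, the most common length was 18 nt in 96, 19 nt in 34, 20 nt in 62, 21 nt in 71 and 22 nt in 40. It was 23 nt in 31, 24 nt in 33, 27 or 28 nt in 52 (37 and 15) and another length in the rest. Among the 701 groups over 1 RPM, 371 were such variants of a larger group. The tally can therefore count variants of 1 large group many times. No tag under 18 nt was kept, so starts further 3′ were not seen. Group 1 was spread over the loop, with 21.4% of its reads at 18 nt, and with 57.0% at 18 to 20 nt in the dry period against 49.4% at peak lactation. Group 3 had its most common start at 22 nt, with 32.4% of its reads, and groups 4 and 16 at 27 nt, with 38.3% and 45.2%. The first base of the tail tags was T in 35.3% of the reads in the dry period against 28.3% at peak lactation, and in 23.5% and 18.8% of reads without the tail.

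The change with stage ran by length inside the groups too. In group 4 the 25 to 29 nt reads went from 2323 to 69110, a log2 ratio of 4.81 (4.75 to 4.87) per clean read, and the 18 to 20 nt reads from 905 to 13079, or 3.77. Its reads of 21 to 24 nt went only from 1925 to 4451, a log2 ratio of 1.13, beside 1.10 for all tail tags of this length. In group 3 the 25 to 29 nt reads went from 826 to 25545, a log2 ratio of 4.87 (4.77 to 4.97), while the shorter classes had 1.27 and 1.18. Group 1 showed the same order, with 3.47 for 25 to 29 nt (1524 and 17896 reads) and 1.10 and 1.35 for the shorter classes. In group 16 the log2 ratio was 5.09 for 25 to 29 nt and 1.15 for 18 to 20 nt. Group 17 was lower at peak lactation in the short classes, with -0.11 and -0.09, and higher at 25 to 29 nt, with 1.97 (277 and 1152 reads). In group 5 the classes differed less, with 1.11 and 1.10 for the shorter ones and 1.52 (1.33 to 1.71) for 25 to 29 nt (291 and 885 reads).

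The mean length was longer at peak lactation in 57 of 58 end groups that had at least 1000 reads and at least 100 in each library. The median shift was 0.65 nt and the largest 3.44 nt. Groups without the tail were longer in 1756 of 1965 (89.4%), with a median shift of 0.44 nt.

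Inside the T loop, 1 position held several bases in many groups. In the tags of 23 nt or more, the bases at positions 16 to 22 from the 3′ end were compared within each of 75 end groups that had at least 200 such reads. At position 19, a median of 38.7% of the reads (quartiles 5.42 and 48.6%) did not hold the most common base of their group, and in 47 of the 75 groups the share was over 20%. At the other 6 positions the medians were 0.158 to 1.42%, and at most 6 groups were over 20%. Position 19 from the 3′ end is position 58 of a tRNA of 76 bases, where most tRNAs carry the methylated A. Not every group was in this register. Groups 11 and 27 held A in 98.9 to 99.4% of the reads at position 21, where the TTC has its C. Group 37 mixed at position 20 (24.9% of its reads) and not at position 19 (0.08%). All of these groups count in the medians above. Groups 13, 23 and 51 mixed in 67.6, 65.9 and 64.6% of the reads at position 19, but not there alone. At position 20 they mixed in 28.3, 27.5 and 17.7%, and at position 22 in 27.8, 27.0 and 17.1%. Their share at position 19 is therefore not that of 1 mixed base alone. Whether the A of position 58 was modified in these molecules was not tested, and the base that the goat genes hold there was not analysed here.

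**Figure D5:**
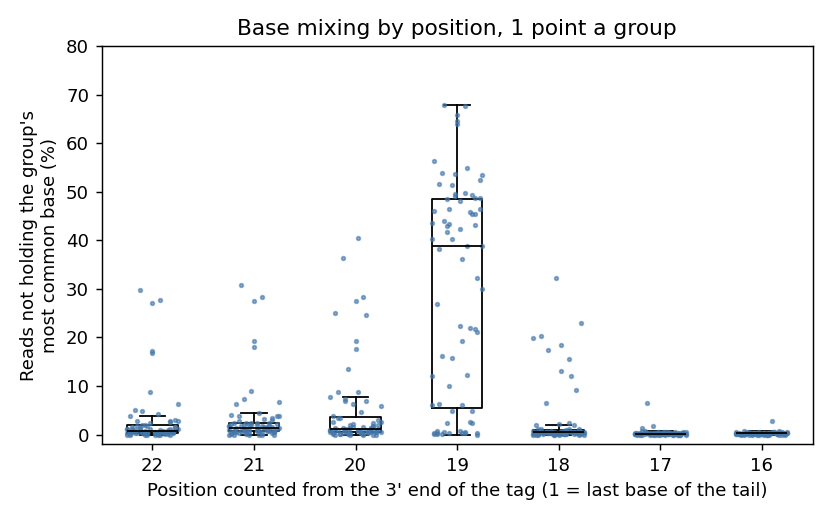
Share of reads (%) that do not hold the most common base of their group, at positions 22 to 16 from the 3′ end of tags of 23 nt or more, with 1 point for each of 75 end groups and boxes for the quartiles and median. The median is 38.7% at position 19 and 0.158 to 1.42% at the other positions.

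The tags below are alike but for this position, printed in capitals, and are shown with their reads because they carry the difference between groups. In group 1 the most common form had G.
Group 1, G: gttcaGgtcacgtcggggtcacca
Group 1, T: gttcaTgtcacgtcggggtcacca
Group 1, A: gttcaAgtcacgtcggggtcacca
Group 1, C: gttcaCgtcacgtcggggtcacca
Group 3, T: ttcgTttccggctcgaaggacca
Group 3, A: ttcgAttccggctcgaaggacca
Group 10, A: gttcgAtccccggcatctccacca
Group 10, T: gttcgTtccccggcatctccacca
The G form of group 1 had 3972 reads in the dry period and 13883 at the peak of lactation, the T form 1154 and 4088, the A form 440 and 1480, and the C form 64 and 152. In group 3 the T form had 3972 and 10777 reads and the A form 749 and 2690. In group 10 the A form had 1403 and 4488 reads and the T form only 67 and 136. The forms shown stood in the same order in both libraries.

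Over all reads of 23 nt or more in each group, A at position 19 made up 13.5% of group 1 in the dry period against 14.2% at peak lactation, with G at 60.2% and 59.7%. It made up 15.2% and 18.02% of group 3, where T had 78.6% and 77.4%, and 12.3% and 13.8% of group 4, where G had 59.4% and 57.0%. Group 2 had A in 30.2% and 35.2%, and T in 53.0% and 49.9%. In other groups nearly all reads held A, as in group 10 (85.2% and 91.6%) and group 22 (96.8% and 97.5%). Group 11 also did (99.8% and 99.6%), but it was out of register, so its position 19 is not the same site. The groups thus differed far more from each other than the stages did.

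Between the stages, the share of A at position 19 could be set side by side in 55 end groups with at least 100 such reads in each library. These include groups 11, 27, 31, 37 and 48, which were out of register. In groups 59, 62, 64, 67, 71 and 104 nearly all reads also held a single base at position 19, and their register was not checked. The median share was 20.9% in the dry period and 26.0% at the peak of lactation, and the median of the differences was 1.09 percentage points. The Wilson intervals of both libraries overlapped in 43 groups, the share was higher at peak lactation in 11 and lower in 1, group 20, which went from 53.4% to 44.9%. Groups 2, 3, 4, 5 and 6 were among those with more A at peak lactation. Counted over the pooled reads instead, A went from 30.0% to 28.6% and G from 22.3% to 28.0%, so the direction for A differed between the counts. A pooled share also moves with the mix of groups. Group 4, with A in 12.3% and 13.8%, had 2880 of the 90214 pooled reads in the dry period. At peak lactation it had 71263 of 395302. Neither count was matched by tag length between the libraries, and tail tags of 25 to 29 nt were more frequent at peak lactation.

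A few tail tags bear on sequences that the study listed as miRNAs or candidates. Of the 94 candidate miRNA sequences read here from the study's list, 4 end in CCA. Candidates novel_mir_45, novel_mir_49 and novel_mir_52 each differ by 1 substitution from the last 15 bases of group 4, namely G8A, T6A and G10A, with positions counted from 1 at the first of the 15 bases and the base of group 4 given first.
Candidate novel_mir_45: aggtccctgttcaggcgCCA
Candidate novel_mir_49: aggtccctgtacgggcgCCA
Candidate novel_mir_52: aggtccctgttcggacgCCA
They are shown because the same stretch is found, without the substitution, in the tag of group 4 above. Their identical tags had 0 and 8, 1 and 10, and 0 and 4 reads (dry period first). The fourth, novel_mir_25, differs from group 4 at 9 of the 15 bases and had 4 and 3 reads.

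The listed chi-miR-2478 itself ends in the tail, and its identical start removed 1 tag with 655 and 1448 reads. Other tags with the same last 15 bases (ccacttctgacaCCA, group 25) start further 5′ and were kept. They had 2521 and 6355 reads and a log2 ratio of 1.25 (1.19 to 1.32) per clean read, and 1.22 with the removed tag added. In all, 131 tags with the tail were removed as conserved miRNAs, with 19898 and 9917 reads. The largest part, 9726 and 4638 reads, was counted for chi-miR-23a and chi-miR-23b-3p.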

How the data were processed

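The authors deposited 1 list of tags per library, each with a length and a raw read count that was neither normalized nor tied to a genome position. Per the methods, filtering for quality, adaptors, inserts and poly(A) stretches came first, and inserts shorter than 18 nt were dropped. CASAVA is named in the submitters' processing notes, without a version. The deposited length column was in nt, and 0 columns of samples were left unused.

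The counts were summed by the last 15 bases of the tags and set against all clean reads or against non-miRNA reads (5769861 and 13446715). Counts of calls used groups of at least 1 RPM in a library, a count of 0 was set to 0.01 RPM, and a group was called at an absolute log2 ratio above 1. Named groups were the 12 with the most reads and, among groups of at least 1000 reads, the 3 with the largest and the 3 with the smallest ratio. The members, lists and rules were chosen with earlier results of these data known. With 1 library per stage no test of the stages was possible. The Audic-Claverie probability, which compares the reads of the libraries and not the stages, served only as an added filter in an alternative. The scripts were tested on simulated data. Computations used scipy 1.17.1, numpy 2.4.6 and Python 3.11.15, plots matplotlib 3.10.9, and R 4.3.3 with edgeR 4.0.16 and DESeq2 1.42.0 only for scaling factors. Tags were not matched to a genome or to tRNA genes here.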

Additional observations from a re-analysis of the deposited data

How the results depend on the processing

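No paired analysis was possible because each stage has 1 library, and leaving out a library was not possible for the same reason. The values rest on the sampling of reads in 2 libraries, and differences between goats, pools or preparations cannot be told apart from differences between stages. Leaving out group 4 was chosen after seeing the data.

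The log2 ratio of the tail tags per clean read was 1.36 with at least 2 reads a tag and 1.36 with at least 5, 1.31 when no miRNA tags were removed, 1.33 for end groups only, 1.27 without group 4, and 0.32 with the TMM factors of edgeR and 0.32 with the size factors of DESeq2. Both of these scalings lowered every log2 ratio by 1.04, and the median over groups of all tags went from 1.21 to 0.17. Per non-miRNA read the ratio was 0.23 with at least 2 reads and 0.22 with at least 5, 0.18 when tags with a miRNA start at any place were removed, 0.17 with no miRNA tags removed, 0.19 for end groups only and 0.13 without group 4. The share of 18 to 20 nt reads differed by -6.49 percentage points, by -5.20 with no miRNA tags removed and by -5.45 without group 4.

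The number of groups tested changed with the setting too. The 517 of 701 groups higher per clean read became 311 of 430 for end groups only and 239 of 334 after joining variants to larger groups. They became 202 of 701 with TMM and 202 with DESeq2, and 10840 of 18019 without a minimum. With at least 5 reads a tag there were 339, and at 10 RPM 144, but the groups tested are not given for these. The same numbers of tested groups hold for the counts below. The 17 lower groups became 4 for end groups only, 46 with TMM and 46 with DESeq2, 5714 without a minimum and 3 at 10 RPM. The 188 groups higher per non-miRNA read became 112 with at least 5 reads, 96 for end groups only, 95 after joining, 10054 without a minimum, 35 at 10 RPM and 110 with the Audic-Claverie probability below 0.01 as well. The 52 lower groups became 25 for end groups only, 6562 without a minimum and 8 at 10 RPM. The log2 ratio of the tail tags kept its sign under the alternatives given. Of the named groups, 4 changed sign per clean read with TMM, namely group 8 (to -0.46), group 12 (to -0.28), group 17 (to -0.95) and group 27 (to -0.96), and the same 4 with DESeq2.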

Other observations

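A few further groups were picked out after their values had been seen. Group 13 (ending in tcggtgggacctCCA) had 1383 reads in the dry period library and 13782 at peak lactation, a log2 ratio of 3.24 (3.16 to 3.32) per clean read and 2.10 per non-miRNA read, and 56.7% of its reads were 26 nt long. Group 19 (ending in cacccagggacgCCA) had 1425 and 9224 reads, with log2 ratios of 2.61 (2.53 to 2.69) and 1.47, and 61.6% of its reads were 27 nt long. Both were end groups whose mean length was longer at peak lactation, by 2.28 and 3.44 nt. Group 131 (ending in aaccggtgcggaCCA) had the lowest ratio of the 701 groups, with 335 and 17 reads and a log2 ratio of -4.38 (-5.08 to -3.69) per clean read, and 48.2% of the reads with its 15 bases ended at the CCA.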
